A study of Arabidopsis thaliana with 6 samples.

Results

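The chloroplast genome of Arabidopsis thaliana was followed in RNA from seedlings of 2 genotypes, wild type and the line cfm6-1, labelled CFM6-/-, both in the background Col-0. All 133 loci whose locus ID begins with ATCG were taken, of 33602 loci in the expression table, whatever their values. Whole seedlings were harvested at day 14 after germination on MS medium with 1% sucrose, at 22 °C under 16 h of light and 8 h of dark, and each genotype had 3 libraries, which the labels call biological replicates. Seedlings of both genotypes were on sugar, and the series title places CFM6, a nuclear gene, in the splicing of a mitochondrial intron. The comparison asked how transcripts of the other organelle genome stood in the mutant. The values are RPKM, reads per kilobase of gene model and per M sequenced reads (M stands for 1e6), 1 value per locus and library, so neither introns nor processed ends were measured.

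The plastid genome encodes part of the photosynthetic apparatus, part of its own ribosome and most of its own tRNAs, and the nucleus supplies the remaining subunits. Its genes lie in clusters that are transcribed together and cut into smaller RNAs. A plastid-encoded RNA polymerase of bacterial type, guided by nuclear sigma factors, transcribes most photosynthesis genes, and nuclear-encoded polymerases of phage type transcribe mainly housekeeping genes such as clpP, accD and those of the rpoB cluster. Most plastid mRNAs lack a long poly(A) tail, and how RNA was selected for sequencing is not given in the sources used here. The levels therefore describe the plastid RNA that was sequenced.

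The 133 loci comprised 15 of photosystem II, 5 of photosystem I, 6 of the cytochrome b6f complex, 6 of ATP synthase, 12 of the NADH dehydrogenase-like (NDH) complex, the Rubisco gene rbcL, 15 of the small and 11 of the large ribosomal subunit, 4 of the RNA polymerase, 13 other protein-coding loci, 37 tRNA loci and 8 rRNA loci. The test took loci with 1 RPKM or more in 3 or more libraries, which were 91 of these and 20047 over all genomes. A deposited column gives the share of multiply mapped reads at each locus, and it was above 0.1 at 44 of the 133 loci and at 24 of the 91, whose levels are called uncertain here. Depth was similar, at 47.3 to 52.7 M reads per library. CFM6 itself (AT4G13070) was at 3.85, 3.69 and 4.10 RPKM in wild type and at 1.32, 1.23 and 1.32 RPKM in cfm6-1. Shoot and root markers were present in every library, and they differed between the genotypes. The nuclear shoot markers RBCS1A and CAB1 were lower in cfm6-1, at 65.6% and 68.2% of the wild type mean (limma adjusted p = 0.00143 and 0.00913). Of the root markers, PYK10 was higher at 140% and CASP1 lower at 45.7% (limma adjusted p = 0.00383 and 1.98e-05). The part of these marker differences in the plastid results was not tested. The floral marker AG had means of 0.15 and 0.08 RPKM in wild type and cfm6-1, and the seed marker CRU3 was at 0 in every wild type library and at 0.59, 0 and 0.01 RPKM in cfm6-1.

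Plastid signal was a small part of the libraries and differed between libraries of the same genotype. Summed RPKM times length over the plastid loci made 0.229%, 0.232% and 0.123% of the signal of all loci in wild type replicates 1 to 3. In cfm6-1 replicates 1 to 3 the plastid share was 0.156%, 0.105% and 0.186%. Wild type replicate 3 and cfm6-1 replicate 2 stood apart at the low end of their genotype, and the ranges of the genotypes overlapped. Ribosomal RNA made 84.5% to 87.8% of the plastid signal. Without rRNA the plastid share was 0.0301%, 0.0317% and 0.0190% in wild type and 0.0198%, 0.0152% and 0.0227% in cfm6-1, again with overlap. Among the 91 tested loci, 74 had their lowest wild type value in replicate 3, and 69 had their lowest cfm6-1 value in replicate 2. The median standard error of the fitted log2 change was 0.188 over tested plastid loci and 0.0687 over all tested loci. In whole seedlings, fewer plastids or green cells and less RNA per plastid cannot be told apart.

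**Figure D1:**
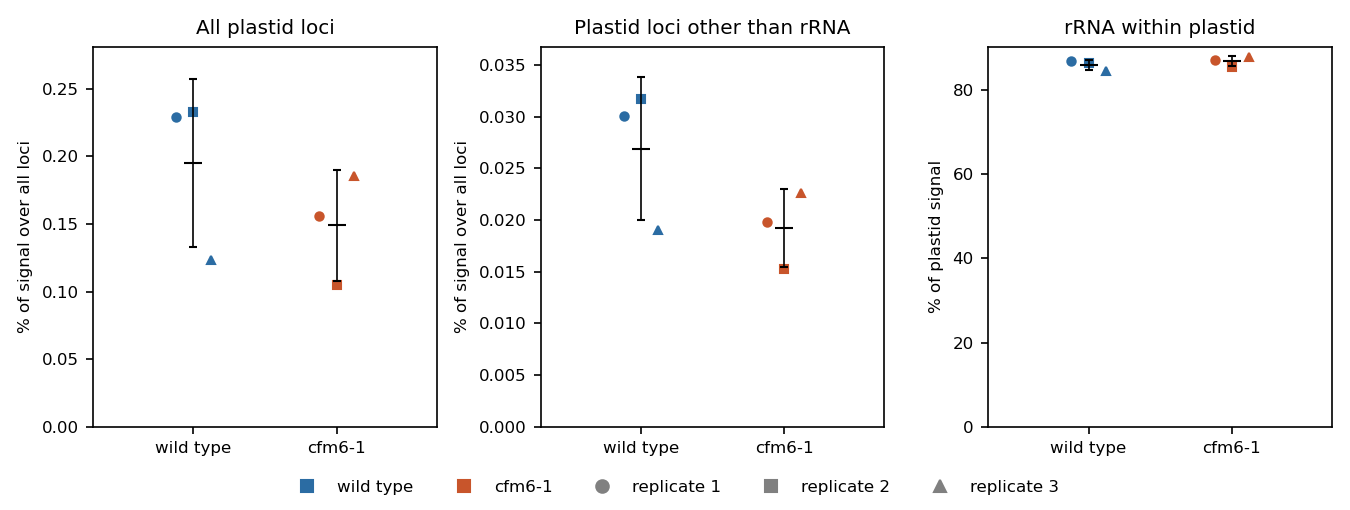
Plastid signal in each library, as summed RPKM times length of all plastid loci or of those other than rRNA, in % of the signal of all loci, and rRNA in % of the plastid signal. Points are libraries, bars the mean and SD (n = 3): wild type replicate 3 (0.123%) and cfm6-1 replicate 2 (0.105%) lie lowest in the first panel and the genotypes overlap in all 3 panels.

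Among the 91 plastid loci tested, cfm6-1 had 27 lower and 3 higher (limma on log2(RPKM + 1), adjusted p below 0.05 over all tested loci). Identical copies of a gene count as separate loci in this paragraph. With such copies summed, 23 were lower and 3 higher, in a fit whose share over all loci is not given. Among all tested loci, 30.2% were called lower and 38.6% higher. The share of tested plastid loci called lower, 29.7%, was close to that background, and the share called higher, 3.30%, was below it. The median log2 change was -0.35 over the tested plastid loci and 0.05 over all tested loci, and 71 of the 91 fitted changes lay below 0. Leaving out the uncertain loci, 18 were lower and 3 higher of 67. The cfm6-1 values lay entirely below the wild type values at 28 of the 91 loci (30.8%, against 32.8% of all tested loci) and entirely above them at 1 locus (1.10%, against 41.5%). In the authors' deposited table, 2 plastid loci had an adjusted p below 0.05, against 40.0% of the tested loci of all genomes in either direction. They were atpB, with a log2 fold change of -1.0 and an adjusted p of 0.0197 in the authors' deposited table, and psaJ, with -1.26 and 0.0202 in the same table, whose direction is given only by codes that match no label.

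Calls are given here by function, beside the 30.2% of all tested loci called lower and the 38.6% called higher. Among the 37 tested loci of photosynthesis (both photosystems, cytochrome b6f, ATP synthase, NDH and rbcL), 14 were lower and none higher, with a median log2 change of -0.53. Of these 14, 13 had a multiply mapped share of at most 0.1. The lower loci petL and ndhK passed the filter through wild type alone. Among the 24 tested loci of the ribosome and the RNA polymerase, 6 were lower and 1 higher, with a median of -0.14, and 5 of the 6 lower loci were uncertain. Without wild type replicate 3 and cfm6-1 replicate 2, a setting added after the values were seen, the photosynthesis loci gave 26 lower and none higher of 35 and the ribosome and polymerase loci 6 lower and 1 higher of 23, where all loci gave 23.9% lower and 31.2% higher. These libraries were left out for their low plastid signal, which narrows the spread of plastid loci by choice. The counts are therefore not support for a fall, and the shares over all loci are no like comparison. No test of the difference between these groups of loci was made.

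Photosystem II, which takes electrons from water, had 7 lower and no higher locus among its 15, all tested, with a median log2 change of -0.64. The highest level in the class was that of psbA (ATCG00020), which encodes a reaction centre protein that is damaged and replaced in the light. Wild type replicates 1 to 3 held psbA at 46.2, 52.4 and 20.1 RPKM, and cfm6-1 replicates 1 to 3 at 28.9, 21.2 and 40.5 RPKM. The genotypes overlapped widely, because wild type replicate 3 was lower than every cfm6-1 library. The means were 39.6 ± 17.2 and 30.2 ± 9.68 RPKM (SD, n = 3), and the fitted log2 change of -0.32 (SE 0.37) did not pass (limma adjusted p = 0.474).

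The small photosystem II subunits psbT, psbM and psbI, which had the lowest adjusted p in the class, changed more evenly over the libraries than psbA. Not all small subunits did. For example, psbZ was at 1.60, 1.78 and 0.73 RPKM in wild type and 0.45, 1.01 and 1.10 RPKM in cfm6-1. It did not pass (limma adjusted p = 0.188). The locus psbT (ATCG00690) was at 10.1, 10.7 and 7.10 RPKM in wild type and at 3.69, 3.74 and 4.09 RPKM in cfm6-1. Every cfm6-1 value lay below every wild type value, and psbT fell to 41.3% of the wild type mean (log2 change -1.07, SE 0.14, limma adjusted p = 0.000331). The locus psbM (ATCG00220) was at 9.01, 6.60 and 6.40 RPKM in wild type and at 3.42, 3.09 and 3.43 RPKM in cfm6-1. Again without overlap, psbM fell to 45.2% (log2 change -0.94, SE 0.12, limma adjusted p = 0.000335). The locus psbI (ATCG00080) was at 15.8, 17.7 and 12.8 RPKM in wild type and at 6.66, 7.91 and 8.88 RPKM in cfm6-1. It fell to 50.7%, also without overlap (log2 change -0.89, SE 0.13, limma adjusted p = 0.000694). Its cluster partner psbK went from 6.93 ± 2.15 to 5.02 ± 0.37 RPKM and did not pass (limma adjusted p = 0.132).

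The locus psbH (ATCG00710), a small phosphorylated subunit, was at 4.44, 4.55 and 2.58 RPKM in wild type and at 1.52, 1.03 and 2.56 RPKM in cfm6-1. The highest cfm6-1 value came within 0.02 RPKM of the lowest wild type value, and psbH fell to 44.2% (log2 change -0.86, SE 0.24, limma adjusted p = 0.0153). The inner antenna gene psbB (ATCG00680) was at 5.18, 6.27 and 3.30 RPKM in wild type and at 2.55, 2.40 and 3.19 RPKM in cfm6-1. The genotypes were just separate, and psbB fell to 55.2% (log2 change -0.64, SE 0.19, limma adjusted p = 0.0180). The reaction centre gene psbD (ATCG00270) was at 3.82, 4.83 and 2.29 RPKM in wild type and at 1.86, 1.58 and 2.24 RPKM in cfm6-1. It fell to 51.9%, with wild type replicate 3 close above the cfm6-1 libraries (log2 change -0.65, SE 0.20, limma adjusted p = 0.0232). Its neighbour psbC, whose reading frame overlaps that of psbD, so that reads in the overlap cannot be assigned to either, had means of 7.03 ± 2.06 and 4.60 ± 0.94 RPKM (limma adjusted p = 0.0687). The calls of psbB and psbD were lost on leaving out replicate 1 or 2 of either genotype (adjusted p up to 0.0590 and 0.0751), and that of psbH on leaving out wild type replicate 1 or 2 (up to 0.0546).

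The psbE-psbF-psbL-psbJ cluster, which encodes the cytochrome b559 subunits and a pair of small proteins beside them, had 1 lower locus of 4. That locus, psbF, fell from 5.47 ± 0.89 to 2.84 ± 1.18 RPKM (limma adjusted p = 0.020), but its multiply mapped share of 0.681 makes it uncertain. The share was 0.627 at psbL and 0.200 at psbE, and psbJ, with none, had means of 12.5 ± 2.23 and 9.69 ± 2.83 RPKM (limma adjusted p = 0.158). The locus psbN lies antisense within the psbB cluster, and whether counting used strand is not given, so its means of 6.45 ± 2.00 and 4.02 ± 2.11 RPKM may hold reads of both strands.

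In photosystem I 1 of 5 loci was lower. The locus psaJ (ATCG00630) encodes a small hydrophobic subunit. Wild type replicates 1 to 3 held it at 51.3, 50.8 and 42.5 RPKM, and cfm6-1 replicates 1 to 3 at 21.8, 16.8 and 23.5 RPKM. All cfm6-1 values lay well below all wild type values, and psaJ fell to 42.9% of the wild type mean, from 48.2 ± 4.96 to 20.7 ± 3.44 RPKM (log2 change -1.19, SE 0.13, limma adjusted p = 0.000150), the largest fall on the log2(RPKM + 1) scale and the smallest adjusted p among the tested plastid loci. As a percentage of the wild type mean, trnC (25.4%), petL (33.8%) and psbT (41.3%) stood lower. None of its reads was multiply mapped. The other 4 loci of photosystem I did not pass, and their cfm6-1 means were 69.6% (psaI), 74.7% (psaB), 75.7% (psaA) and 82.6% (psaC) of wild type. The reaction centre genes psaA and psaB had wild type values from 1.55 to 3.59 RPKM and from 2.22 to 4.73 RPKM, with wild type replicate 3 lowest at both.

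The locus psaJ lies in a cluster with petL, petG, rpl33 and rps18, and the cluster was uneven in level and in change. In wild type, psaJ was at 48.2 RPKM, petL at 2.22, petG at 1.98, rpl33 at 2.88 and rps18 at 1.22 RPKM. Of these 5 loci 2 were lower. The cfm6-1 means were 33.8% of wild type at petL, 66.8% at petG, 42.9% at psaJ, 82.4% at rpl33 and 67.1% at rps18. RPKM of very short loci, here 96 to 306 bases with 100-base reads, depends on how reads at the ends were counted, so the level of psaJ against its neighbours carries that limit.

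**Figure D2:**
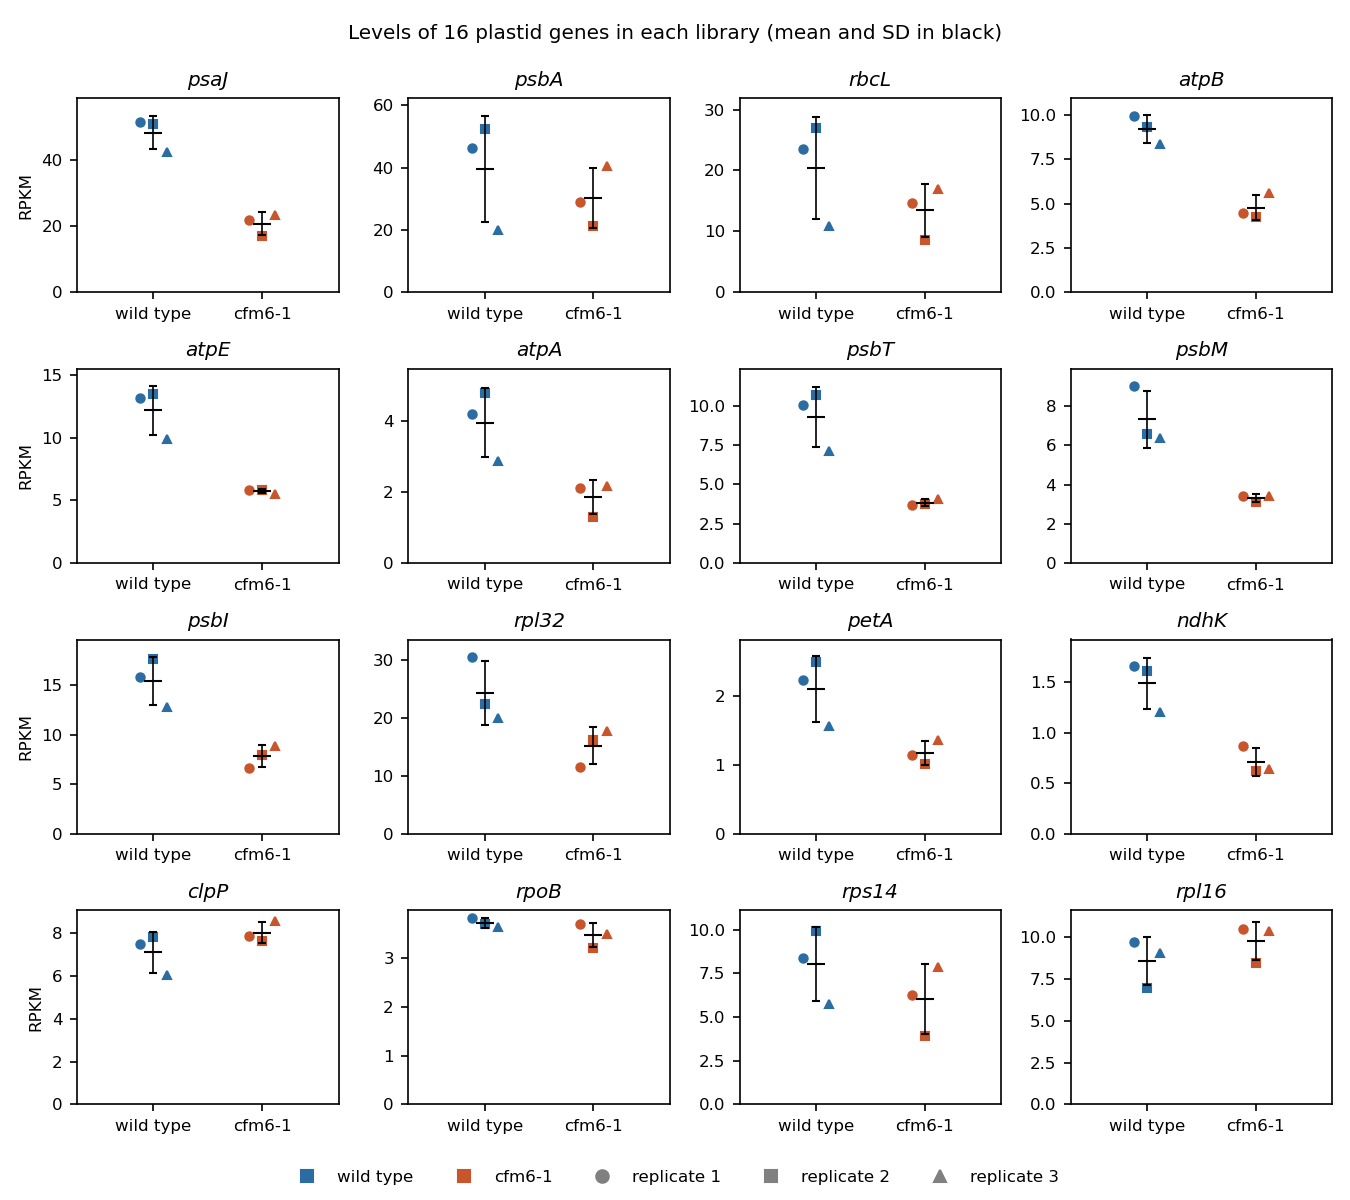
RPKM of 16 plastid genes in each library, with the mean and SD in black (n = 3) and axes that start at 0. The 3 cfm6-1 points of psaJ (16.8 to 23.5 RPKM) lie below the 3 wild type points (42.5 to 51.3 RPKM), whereas the points of the genotypes overlap at psbA, rbcL, clpP, rpoB, rps14 and rpl16.

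The cytochrome b6f complex passes electrons between the photosystems. Its locus petA (ATCG00540), for cytochrome f, was at 2.22, 2.49 and 1.56 RPKM in wild type and at 1.14, 1.01 and 1.36 RPKM in cfm6-1. The genotypes did not overlap, and petA fell to 56.0% (log2 change -0.50, SE 0.13, limma adjusted p = 0.00983). The small subunit locus petL (ATCG00590) was at 3.36, 2.27 and 1.03 RPKM in wild type and at 0.66, 0.60 and 0.99 RPKM in cfm6-1. It fell to 33.8%, with wild type replicate 3 barely above the cfm6-1 libraries (log2 change -0.82, SE 0.26, limma adjusted p = 0.0247). That call rests on 32 rebuilt reads in wild type and 11 in cfm6-1, and it was lost without cfm6-1 replicate 1 or 2 (adjusted p up to 0.0737). No cfm6-1 library reached the filter level, so petL was tested only through wild type, and its call is not support for a fall. The highest level in the class was that of petD (ATCG00730), the subunit beside cytochrome b6, at 5.29, 5.74 and 2.78 RPKM in wild type and at 2.76, 2.29 and 3.65 RPKM in cfm6-1. Wild type replicate 3 lay within the cfm6-1 range, and petD did not pass (log2 change -0.49, SE 0.23, limma adjusted p = 0.0940). In the class 2 of 6 loci were lower, and petN, at 127% of wild type, had the only fitted change above 0 among the tested photosynthesis loci (limma adjusted p = 0.275).

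The chloroplast ATP synthase makes ATP from the proton gradient, and 3 of its 6 plastid loci were lower, with a median log2 change of -0.70. The atpB-atpE cluster encodes the beta and epsilon subunits, and both of its loci fell. The locus atpB (ATCG00480) was at 9.96, 9.35 and 8.36 RPKM in wild type and at 4.47, 4.25 and 5.58 RPKM in cfm6-1. Libraries of a genotype lay close together and the genotypes far apart, and atpB fell to 51.7% (log2 change -0.83, SE 0.10, limma adjusted p = 0.000278). The locus atpE (ATCG00470) was at 13.2, 13.5 and 9.92 RPKM in wild type and at 5.84, 5.82 and 5.55 RPKM in cfm6-1. It fell to 47.0%, with no overlap (log2 change -0.96, SE 0.11, limma adjusted p = 0.000197). The reading frames of atpB and atpE overlap by a few bases, and their multiply mapped shares were 0.0216 and 0.0764.

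In the rps2-atpI-atpH-atpF-atpA cluster, atpA (ATCG00120), for the alpha subunit, was at 4.18, 4.78 and 2.88 RPKM in wild type and at 2.10, 1.29 and 2.15 RPKM in cfm6-1. The genotypes did not overlap, and atpA fell to 46.8% (log2 change -0.79, SE 0.18, limma adjusted p = 0.00572). The membrane subunits of this cluster did not pass, with cfm6-1 means of 58.5% (atpF, limma adjusted p = 0.0592), 66.8% (atpH, 0.144) and 74.0% (atpI, 0.194) of wild type. The ribosomal locus rps2, first in the cluster, was under the filter at 0.62 ± 0.11 and 0.52 ± 0.11 RPKM.

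Plastid loci of the NDH complex, which cycles electrons around photosystem I, were close to the limit of what was tested: 4 of 12 passed the filter. The locus ndhK (ATCG00430) was at 1.66, 1.61 and 1.20 RPKM in wild type and at 0.87, 0.62 and 0.64 RPKM in cfm6-1. It fell to 47.7%, with no overlap (log2 change -0.54, SE 0.10, limma adjusted p = 0.00265). No cfm6-1 library reached the filter level, so ndhK was tested only through wild type, and its call is not support for a fall. The highest level in the class was that of ndhJ (ATCG00420), at 1.90, 2.28 and 1.12 RPKM in wild type and at 0.97, 1.08 and 1.35 RPKM in cfm6-1. Wild type replicate 3 lay within the cfm6-1 range, and ndhJ did not pass (limma adjusted p = 0.0883). The locus ndhD was at 71.6% of wild type and did not pass. The other tested locus, a copy of ndhB (ATCG01250), did not pass either and is uncertain, since it was at 2.67 RPKM in wild type replicate 1, where the other copy was listed at 0. The sum of both copies was at 67.2% of wild type (limma adjusted p = 0.0623).

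The cfm6-1 mean was below the wild type mean at 10 of the 12 NDH loci, those under the filter included. In the ndhH-to-ndhD cluster, the wild type and cfm6-1 means were 1.10 ± 0.39 and 0.36 ± 0.10 RPKM at ndhG, 0.91 ± 0.50 and 0.31 ± 0.15 RPKM at ndhI, 1.04 ± 0.62 and 0.42 ± 0.30 RPKM at ndhE, and 1.03 ± 0.62 and 0.46 ± 0.06 RPKM at ndhA. The other loci of the cluster under the filter were ndhH, at 0.29 ± 0.11 and 0.23 ± 0.07 RPKM, and rps15, at 0.12 ± 0.11 and 0.30 ± 0.06 RPKM, whose cfm6-1 values lay above those of wild type. Rebuilt reads summed to 88 and 29 at ndhG, 71 and 24 at ndhI, 48 and 20 at ndhE, and 169 and 76 at ndhA in wild type and cfm6-1. With no filter on low values, where 24.7% of all loci were called lower and 30.6% higher, ndhG (limma adjusted p = 0.0114) and ndhC of the ndhC-ndhK-ndhJ cluster (0.0390) were called lower and the others of these were not. The setting also called a glutamic acid tRNA locus (ATCG00250) lower and a pair of repeat loci, ATCG00870 and ATCG01270, higher, all of them uncertain and with 13 rebuilt reads or fewer per genotype. The locus ndhF was at 0.22 and 0.24 RPKM.

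The plastid gene rbcL (ATCG00490) encodes the large subunit of Rubisco, the enzyme that fixes carbon dioxide. Wild type replicates 1 to 3 held rbcL at 23.5, 26.9 and 10.9 RPKM, and cfm6-1 replicates 1 to 3 at 14.7, 8.59 and 17.0 RPKM. Wild type replicate 3 fell inside the cfm6-1 range. The means were 20.4 ± 8.43 and 13.4 ± 4.34 RPKM, and the fitted log2 change of -0.53 (SE 0.36) did not pass (limma adjusted p = 0.219). Without wild type replicate 3 and cfm6-1 replicate 2 it passed (log2 change -0.64, limma adjusted p = 0.00608), and psbA did not (log2 change -0.51, limma adjusted p = 0.0530). Without wild type replicate 3 alone, both passed, rbcL with a log2 change of -0.91 (limma adjusted p = 0.0235) and psbA with -0.73 (limma adjusted p = 0.0401). The libraries left out had the lowest plastid signal of their genotype, so these passes are not support for a fall. Over the 6 fits that leave out a library, the log2 change ran from -0.91 to -0.26 at rbcL and from -0.73 to -0.06 at psbA. Within wild type the highest library exceeded the lowest 2.61-fold at psbA and 2.47-fold at rbcL, but 1.21-fold at psaJ, 1.19-fold at atpB and 1.05-fold at rpoB, so the spread between libraries was not the same for all plastid loci.

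Loci of the plastid ribosome, which makes the proteins encoded in the organelle, had 6 lower and 1 higher call among 21 tested, with a median log2 change of -0.21. The lower loci were rpl32, rps19 and both copies of rpl2 and rps7, and only rpl32 had a multiply mapped share of at most 0.1. Encoding a protein of the large subunit, rpl32 (ATCG01020) was at 30.5, 22.3 and 19.9 RPKM in wild type and at 11.6, 16.1 and 17.8 RPKM in cfm6-1. The genotypes were separate by a small gap, and rpl32 fell to 62.5% (log2 change -0.64, SE 0.19, limma adjusted p = 0.0190). The highest level of a small subunit gene was that of rps14 (ATCG00330), which lies behind psaA and psaB, at 8.37, 9.94 and 5.74 RPKM in wild type and at 6.28, 3.91 and 7.88 RPKM in cfm6-1. The genotypes overlapped and rps14 did not pass (limma adjusted p = 0.213).

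The long cluster from rpl23 to rpoA encodes ribosomal proteins and, at its end, the alpha subunit of the RNA polymerase. In the order of the cluster, loci given here stood in cfm6-1 at 62.9% (rpl23), 53.6% (rpl2), 59.8% (rps19), 88.4% (rpl22), 106% (rps3), 114% (rpl16), 88.7% (rpl14), 110% (rpl36) and 105% (rpoA) of the wild type mean. The first 3 loci are uncertain, with multiply mapped shares of 0.788 to 1, since rpl23 and rpl2 lie in the inverted repeat and rps19 at its edge. The 6 other loci given here had no lower and no higher call, with a median log2 change of 0.06. Large subunit proteins rpl14 and rpl16 had means of 7.39 ± 0.68 and 6.56 ± 0.58 RPKM and of 8.57 ± 1.45 and 9.78 ± 1.14 RPKM, and did not pass (limma adjusted p = 0.149 and 0.248).

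None of the RNA polymerase loci passed in either direction. The beta subunit locus rpoB (ATCG00190) was at 3.82, 3.69 and 3.63 RPKM in wild type and at 3.69, 3.20 and 3.49 RPKM in cfm6-1. The libraries lay close together in both genotypes and overlapped, and the fitted log2 change was -0.08 (SE 0.06, limma adjusted p = 0.290). The cfm6-1 means of rpoC1, rpoA and rpoC2 were 94.5%, 105% and 84.2% of wild type, and rpoC2, at 0.63 and 0.53 RPKM, was under the filter. The median ratio of the highest to the lowest wild type library was 1.14 over the tested polymerase loci, against 2.32 over photosystem I loci and 1.86 over those photosystem II loci that are not uncertain.

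Among the 13 other protein-coding loci, 5 were tested, and 1 was lower and 1 higher. The highest level was that of clpP (ATCG00670), the plastid subunit of the Clp protease, at 7.46, 7.81 and 6.02 RPKM in wild type and at 7.83, 7.63 and 8.57 RPKM in cfm6-1. The genotypes overlapped and clpP did not pass (log2 change 0.16, SE 0.09, limma adjusted p = 0.169). In the clpP-rps12-rpl20 cluster all 3 loci had cfm6-1 means above wild type, at 113% (clpP), 111% (rps12A, the first exon of a trans-spliced gene) and 102% (rpl20), and none passed. The envelope protein locus cemA (ATCG00530) was at 3.59, 3.33 and 1.86 RPKM in wild type and at 1.41, 1.55 and 2.14 RPKM in cfm6-1. Wild type replicate 3 lay below the highest cfm6-1 library, and cemA fell to 58.1% (log2 change -0.52, SE 0.19, limma adjusted p = 0.0436).

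A factor for the assembly of photosystem I is encoded by ycf3 (ATCG00360), which was at 1.00, 1.77 and 1.25 RPKM in wild type and at 1.89, 1.75 and 2.19 RPKM in cfm6-1. The genotypes overlapped slightly, and ycf3 rose to 145% (log2 change 0.34, SE 0.13, limma adjusted p = 0.0462). The calls of cemA and ycf3 were lost in 4 and 5 of the 6 fits that leave out a library (adjusted p up to 0.130 for each). The locus accD, for a subunit of acetyl-CoA carboxylase that starts fatty acid synthesis, was under the filter at 0.23 RPKM in both genotypes.

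**Figure D3:**
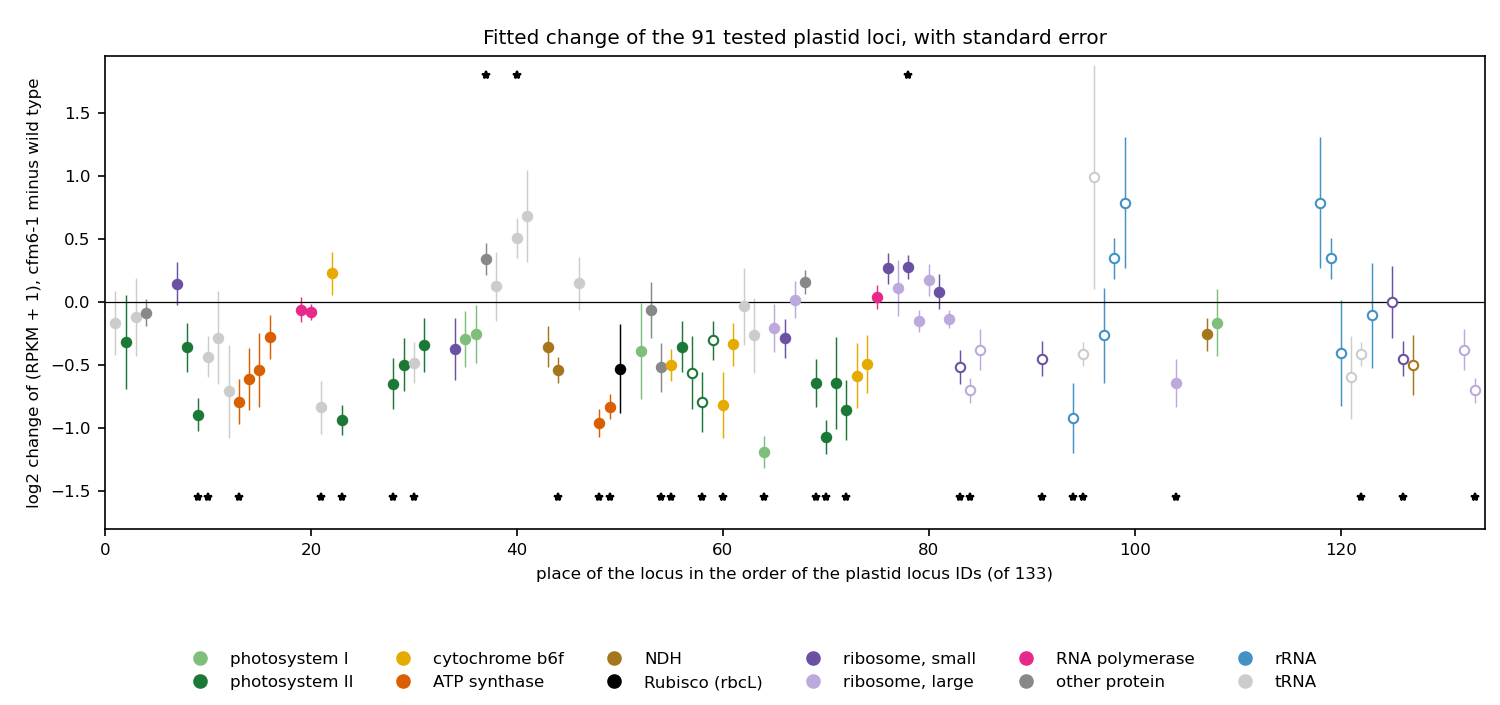
Fitted log2 change of (RPKM + 1), cfm6-1 minus wild type, of the 91 tested plastid loci in the order of their locus IDs, with standard errors. Colours give the function, open circles a multiply mapped share above 0.1, and stars the calls at an adjusted p below 0.05 (27 below, 3 above): 71 of 91 points lie under the line at 0.

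Mature tRNAs are short and folded, and reads on them were few. Of the 37 tRNA loci 17 were tested, and 5 were lower and 1 higher. With at most 20 rebuilt reads over the 6 libraries there were 26 plastid loci, 21 of them tRNA. A tRNA for cysteine, trnC (ATCG00200), was at 1.99, 1.12 and 1.11 RPKM in wild type and at 0, 0.54 and 0.53 RPKM in cfm6-1, which stand for 15 and 4 reads. The genotypes did not overlap (limma adjusted p = 0.00918), but with so few reads the size of the fall is poorly known. No cfm6-1 library reached the filter level, so trnC was tested only through wild type, and its call is not support for a fall.

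A serine tRNA locus (ATCG00090) was at 15.3, 13.1 and 10.6 RPKM in wild type and at 8.41, 8.03 and 11.6 RPKM in cfm6-1, falling to 72.1% (limma adjusted p = 0.0457) with overlap at wild type replicate 3. Another serine tRNA locus (ATCG00290) was at 2.63, 2.80 and 3.87 RPKM in wild type and at 2.53, 1.45 and 1.85 RPKM in cfm6-1, falling to 62.7% (limma adjusted p = 0.0303). Both calls were lost in 4 of the 6 fits that leave out a library (adjusted p up to 0.138 and 0.0948). The higher locus, a threonine tRNA (ATCG00390), was at 0.55, 1.09 and 0.54 RPKM in wild type and at 1.74, 1.57 and 1.04 RPKM in cfm6-1. These values stand for 8 and 16 reads, the genotypes overlapped, and the call (limma adjusted p = 0.0234) was lost in 4 of 6 such fits (adjusted p up to 0.0791).

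The plastid genome carries a large inverted repeat, so that the genes in it exist as identical copies. The table lists 18 such pairs, and all 36 copies had a multiply mapped share of 0.9995 or above. In 13 pairs both copies had the same value in every library (within 0.005 RPKM). In the other 5 pairs the copies differed, and in 3 of them (ndhB, rps12 and trnA) a copy was listed at 0 in a library where the other was not. The 23S rRNA copies, for example, were at 360 and 75.1 RPKM in wild type replicate 2 and at the same 223 RPKM in replicate 1. How the authors assigned such reads is not given, and values of single copies in these pairs carry that limit.

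Summed over both copies, no rRNA passed in the values as deposited with all libraries. The 16S rRNA sum was 408, 437 and 226 RPKM in wild type and 288, 186 and 340 RPKM in cfm6-1, with overlap (limma adjusted p = 0.291). The fall of a single 16S copy (ATCG00920) from 132 ± 43.4 to 69.6 ± 22.4 RPKM (limma adjusted p = 0.0212), was therefore not kept in the sum. The 23S sum was 446, 436 and 226 RPKM in wild type and 296, 198 and 358 RPKM in cfm6-1 (limma adjusted p = 0.335). The 4.5S sum, at 25.7 ± 3.96 and 33.5 ± 6.84 RPKM, did not pass either (limma adjusted p = 0.0946). Both single 4.5S copies were called higher without wild type replicate 3 and cfm6-1 replicate 2, the libraries of lowest plastid signal. The remaining rRNA pair (ATCG00970 and ATCG01160) summed to 9.66, 8.02 and 3.10 RPKM in wild type and to 12.4, 5.20 and 27.6 RPKM in cfm6-1, with overlap and a wide spread in both genotypes (limma adjusted p = 0.215).

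Of the protein and tRNA genes in the repeat, 3 pair sums passed. The ribosomal gene rpl2 was at 12.0, 9.88 and 8.74 RPKM in wild type and at 5.56, 5.28 and 5.60 RPKM in cfm6-1, a fall without overlap to 53.6% (limma adjusted p = 0.000421). The sum of the rps7 copies fell from 5.17 ± 1.08 to 3.23 ± 0.65 RPKM (limma adjusted p = 0.0193). That of the isoleucine tRNA copies ATCG00930 and ATCG01200, the highest tRNA level, was at 37.8, 29.0 and 36.0 RPKM in wild type and at 25.7, 25.6 and 23.8 RPKM in cfm6-1 (limma adjusted p = 0.00543). For rps12 the sum was 4.42 ± 0.59 and 4.37 ± 0.38 RPKM (limma adjusted p = 0.934).

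Because plastid signal differed between libraries, the make-up of the protein-coding plastid signal was also followed. It was not independent of the total within a genotype: the photosynthesis classes made 72.4%, 75.5% and 65.2% in wild type and 64.97%, 61.2% and 68.3% in cfm6-1, lowest in the libraries of lowest plastid signal, wild type replicate 3 and cfm6-1 replicate 2. Shares that sum to 100% are tied to each other, and 3 libraries against 3 cannot go below p = 0.1 in an exact permutation test, so only values are given. The ATP synthase share was 13.3%, 12.4% and 15.1% in wild type and 10.04%, 10.6% and 9.72% in cfm6-1, lower in every cfm6-1 library. The NDH share (4.21 ± 0.21% and 3.61 ± 0.17%) and the cytochrome b6f share (2.92 ± 0.15% and 2.49 ± 0.13%) also lay lower in cfm6-1 without overlap. Shares of the small ribosomal subunit (5.57 ± 0.63% and 7.21 ± 0.72%) and of the other protein-coding loci (5.08 ± 0.42% and 6.94 ± 0.62%) lay higher in cfm6-1 without overlap. The remaining classes overlapped: photosystem II at 29.9 ± 3.80% and 29.6 ± 2.32%, photosystem I at 8.70 ± 0.44% and 8.02 ± 0.66%, rbcL at 11.7 ± 2.22% and 11.0 ± 1.67%, the large ribosomal subunit at 9.60 ± 2.12% and 9.93 ± 1.16%, and the RNA polymerase at 8.72 ± 2.19% and 11.1 ± 1.19%. The overlaps given here hold for sums weighted by length. With RPKM summed without length, the difference (cfm6-1 minus wild type, percentage points) went from -0.43 to -0.016 for cytochrome b6f. It went from -0.60 to -0.55 for NDH and from -0.68 to -4.11 for photosystem I. ATP synthase went from -3.50 to -1.89 and the small ribosomal subunit from 1.64 to 3.10.

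**Figure D4:**
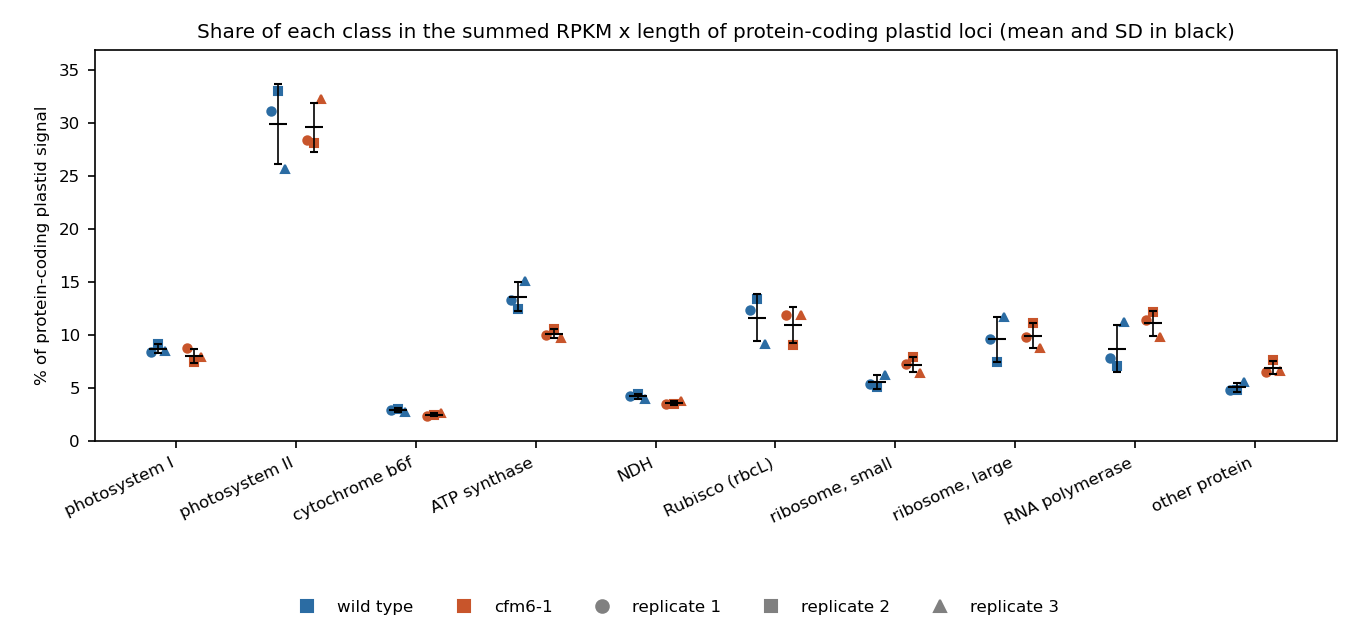
Share of each functional class in the summed RPKM times length of the protein-coding plastid loci, in %, for each library, with the mean and SD in black (n = 3). The cfm6-1 points of ATP synthase (9.72% to 10.6%) lie below the wild type points (12.4% to 15.1%), and those of the small ribosomal subunit lie above theirs.

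The fit was repeated with plastid loci rescaled in each library to an equal plastid signal without rRNA, so that a change is relative to the rest of the plastid RNA. On that scale 15 loci were lower (16.5%, with a background of 30.2%) and 17 higher (18.7%, with a background of 38.7%), and all 15 were also lower in the values as deposited. Photosynthesis loci gave 13 lower and 1 higher (petN), and ribosome and polymerase loci 1 lower and 8 higher. The lower photosynthesis loci were psaJ, psbT, psbM, psbI, psbH, psbB, psbD, atpE, atpB, atpA, petA, petL and ndhK, whereas psbA and rbcL had rescaled log2 changes of 0.15 and -0.08 and did not pass. Of the lower loci, petL and ndhK had passed the filter through wild type alone. In the rpl23-to-rpoA cluster, 4 of the 6 loci given above that are not uncertain were higher on this scale, and clpP, rps12A, rpl20 and ycf3 were higher as well. So were both 4.5S rRNA copies (limma adjusted p = 0.000376) and the rRNA copies ATCG00970 and ATCG01160 (limma adjusted p = 0.0275), all of them uncertain. Since scaling fixes the total, falls of abundant loci raise the rest on this scale, and it does not show whether a locus changed per seedling.

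**Figure D5:**
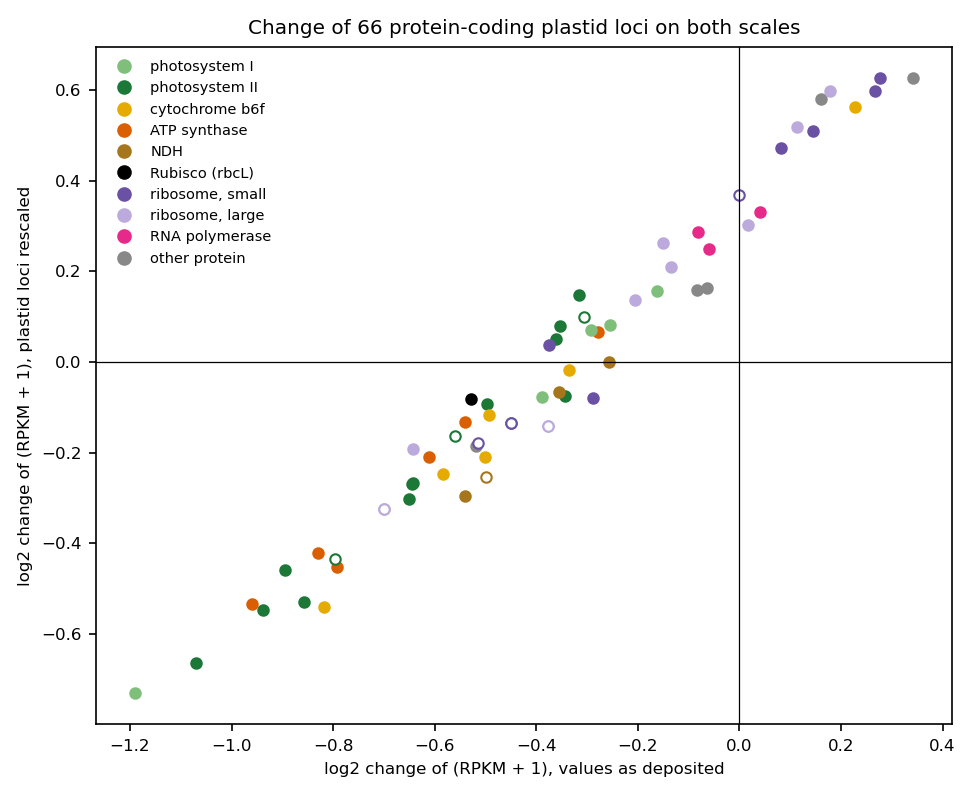
Log2 change of (RPKM + 1), cfm6-1 minus wild type, of 66 tested protein-coding plastid loci: values as deposited on the horizontal axis, plastid loci rescaled to equal plastid signal on the vertical axis. Open circles mark a multiply mapped share above 0.1, and psaJ is the point at lower left (-1.19 and -0.73). Most photosynthesis loci lie below 0 on the horizontal axis, and the ribosomal loci spread across it.

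Nuclear genes whose products work with these loci were read from the same fit. Of 20 nuclear partners of plastid transcription (proteins of the polymerase complex, sigma factors and phage-type polymerases), 11 were lower and 4 higher, with a median log2 change of -0.19, where 30.2% of all tested loci were lower and 38.6% higher. Among the sigma factors 5 of 6 were lower, and among the 12 polymerase-associated proteins 6 were lower and 2 higher. SIG4 was at 25.4, 24.98 and 27.0 RPKM in wild type and at 12.9, 12.1 and 12.4 RPKM in cfm6-1 (limma adjusted p = 7.11e-06), falling to 48.3%. PAP7/pTAC14 fell from 30.1 ± 1.21 to 20.8 ± 1.21 RPKM (limma adjusted p = 0.000169). PAP9/FSD2, a superoxide dismutase, rose 1.58-fold (limma adjusted p = 9.22e-05).

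The phage-type polymerase RPOTmp, which serves plastids and mitochondria, rose from 3.99 ± 0.33 to 8.27 ± 0.55 RPKM (limma adjusted p = 4.37e-05). RPOTp, its plastid relative, chosen after its values were seen, rose 1.21-fold (limma adjusted p = 0.00375). Whether these levels are linked to those of the plastid loci was not tested.

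Nuclear subunits of the NDH complex were lower in 15 of 17 cases and higher in none, with a median log2 change of -0.55, beside the same backgrounds. PnsB1 was at 61.7, 57.8 and 55.2 RPKM in wild type and at 23.8, 21.2 and 23.4 RPKM in cfm6-1, a fall to 39.2% (limma adjusted p = 6.23e-06). PnsB4 and PnsB2 fell to 57.9% and 52.2% (limma adjusted p = 8.54e-06 and 1.04e-05). NdhL fell to 51.6% (limma adjusted p = 7.38e-06), but up to 0.25 of its reads were multiply mapped, so its level is uncertain.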

How the data were processed

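RNA-seq was done on 3 wild type and 3 cfm6-1 libraries of whole seedlings, as 100-base single-end reads, per the labels' protocols. The genome build was TAIR10, per the submitters' processing notes. The sources used here name no aligner, counting tool or annotation release, and say neither whether counting used strand nor how RNA was selected. Levels were deposited by the authors as RPKM with 2 decimals. The deposited fraction of multiply mapped reads per locus runs from 0 to 1, and how it was computed is not given. The authors' deposited table also holds gene model length, p-values, adjusted p-values and log2 fold changes. It further has per-sample values in 6 columns whose codes match no label, and these were not used, nor were mapping totals with such codes.

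Depth was read from steps of RPKM times length in loci under 0.3 kb, where 100% of 354 to 404 values per library fell within 0.1 of a whole read, and reads were rebuilt from it (44.1 to 49.2 M per library, M for 1e6). They gave 51367 to 109867 reads on plastid loci per library, 7451 to 14971 of them outside rRNA. Genotypes were compared with limma 3.58.1 in R 4.3.3, with a mean-variance trend, on log2(RPKM + 1) over loci that reached 1 RPKM in 3 or more libraries, with Benjamini-Hochberg adjustment over all of them and a threshold of 0.05. The pseudocount understates changes of low loci, so percentages are ratios of mean RPKM. The fit was tested on simulated data. Limma-voom ran on the rebuilt reads as an alternative. The others were another pseudocount, no filter, a replicate block, other scalings, uncertain loci or libraries left out, and summed repeat copies. Shares are sums of RPKM times length. All plastid loci were counted, but some are not reported here by name. Values per library are given for calls with a multiply mapped share of at most 0.1, the highest member of each class, psbA, rbcL and the members that rose, and for up to 4 genes of each nuclear list by adjusted p. Members, classes and lists were chosen with earlier results of these data known. Plastid names come from a list written for this work: 129 of 133 were found in a RefSeq table of assembly TAIR10.1, and 121 with the same length. Reads without molecular identifiers are not independent molecules.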

Additional observations from a re-analysis of the deposited data

How the results depend on the processing

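The 27 lower plastid calls became 15 with plastid loci rescaled to equal plastid signal and ranged from 14 to 41 when each library was left out in turn, with 41 without wild type replicate 3, 16 without wild type replicate 1 and 14 without wild type replicate 2. The 3 higher calls became 17 when rescaled, 0 in limma-voom on rebuilt reads (where 24 were lower), 1 with median-of-ratios scaling and 1 with quantile normalization, which was added after the values were seen, and ranged from 0 (without wild type replicate 3) to 5 (without cfm6-1 replicate 2). Apart from the rescaled fit, no share of all loci called is given for these fits or for the replicate block. Their counts therefore do not tell a shift of plastid calls from a shift of all calls. Without wild type replicate 3 and cfm6-1 replicate 2, for example, 23.9% of all tested loci were lower, against 30.2% with all libraries. Of the lower calls 14 were kept in every fit that leaves out a library, 9 of them not uncertain: psbI, atpA, psbM, atpE, atpB, petA, psaJ, psbT and rpl32. None of the higher calls was kept in every such fit. The loci trnC, ndhK and petL were under the filter in fits without a wild type library. They reached 1 RPKM in wild type libraries only, so they were tested only because wild type was high. In the 3 fits that tested them, trnC and ndhK were called in all 3 and petL in 1. Those fits keep every wild type library, so they are not support for a fall. Under rescaling the median log2 change over the tested plastid loci went from -0.35 to 0.03, and many loci changed sign. Among them were both copies of an isoleucine tRNA (ATCG00930 and ATCG01200), which turned to 0.0267, and psbA, which turned to 0.15. In the class shares, leaving out each library gave differences (cfm6-1 minus wild type, percentage points) that crossed 0: from -1.94 to 0.27 for rbcL, from -2.44 to 1.22 for photosystem II and from -0.73 to 1.39 for the large ribosomal subunit. The cause was not tested. Replicate numbers are shared by both genotypes, and the labels name no pairing. Same-numbered libraries did not deviate together over all tested loci (correlations 0.03, -0.14 and -0.00). Over the 91 tested plastid loci these correlations were -0.11, -0.34 and -0.55, and wild type replicate 3 against cfm6-1 replicate 2 gave 0.44. Whether libraries shared a batch or harvest was not tested. With a replicate block 26 loci were lower and 3 higher. Depth limits the low loci: 42 of 133 were under the filter, and 26 had at most 20 rebuilt reads in all.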
